A study of Fukomys damarensis and Heterocephalus glaber and Mus musculus with 160 samples.

Results

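H3K4me3, trimethylation of lysine 4 on histone H3, was compared between mouse liver and mouse heart in 10 chromatin immunoprecipitation (ChIP-seq) peak lists, 4 from liver and 6 from heart. They are the mouse H3K4me3 lists among 116 peak lists in a series of 160 samples that covers liver and heart of mole-rats, guinea pig and mouse. Lists were taken by species, tissue and antibody alone, and none was dropped. All animals were wild-type C57BL/6J adult males aged 2 months, with no treatment named. The liver libraries came from animals 85920, 85921, 85923 and 85924. The heart libraries came from animals 33016, 17_36584, 6839, 6837 and 6842 and from 1 pool of 3 animals, which counted as 1 replicate. Values over all libraries are printed below in that order of animals, with the pool after 17_36584. No animal gave an H3K4me3 list for both tissues.

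H3K4me3 is placed by the SET1 and MLL methyltransferase complexes around the start sites of genes that are transcribed or poised for transcription. Most promoters rich in CpG carry it in nearly every tissue, and a smaller set gains it only where the gene is in use. Broad stretches of the mark are known from genes that define a cell type. H3K27ac, an acetylation of the same histone, is found at promoters and enhancers in use, and H3K4me1 mainly at enhancers. Liver chromatin comes mostly from hepatocytes and heart chromatin from cardiomyocytes, endothelial cells and fibroblasts. ChIP-seq of whole tissue cannot tell a mark in few cells from a weaker mark in many.

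The lists held 17431 to 19301 peaks in liver and 18135 to 32785 in heart. The lists give no numbers of reads, so depth is unknown. The share of peaks with a −log10 q of at least 4 was 97.1% to 98.4% in liver and 69.6% to 96.4% in heart, lowest in heart 6842. Each liver list had been called against input chromatin of the same animal, while among the heart lists this was so for the pool only. Tissue and the choice of input therefore cannot be told apart. A gene annotation of the build was not used here, so regions are given by position on GRCm38 and no gene is assigned to them.

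Among the heart lists, only the library labelled 6837 had a higher mean overlap with liver than with heart. Its mean Jaccard index, the bases covered by both lists divided by the bases covered by either, was 0.547 with the liver lists and 0.486 with the other heart lists. The other 5 heart lists had 0.518 to 0.616 with liver and 0.537 to 0.660 with heart, each higher with heart. The value of 6837 with liver thus lay within theirs, and its value with heart lay below theirs. The liver lists had 0.811 to 0.83 among themselves and 0.556 to 0.571 with heart. In 6837, 9568 regions (35.8% of its regions) were found in no other H3K4me3 list. Of these, 98.8% to 99.0% overlapped a peak in each of the 4 liver H3K27ac lists, against 14.6% to 29.0% in the 6 heart H3K27ac lists. The pool had 8677 such regions, and there the heart H3K27ac lists covered more, 43.1% to 64.2% against 22.7% to 27.97% in liver. In heart 6842, 11267 regions with a median width of 216 bases were found in no other list, and 1.57% to 5.19% of them had an H3K27ac peak in either tissue.

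The same was seen from the side of H3K27ac. Of 49283 liver H3K27ac regions found in at least 2 liver libraries, 17625 overlapped no liver H3K4me3 peak and no heart H3K27ac peak. The library labelled heart 6837 had an H3K4me3 peak at 3029 of these (17.2%), and the other 5 heart lists at 0.0284% to 0.766%. Its Jaccard index with the liver H3K27ac lists was 0.371 to 0.380, above that of the liver H3K4me3 lists (0.242 to 0.275) and of the other heart H3K4me3 lists (0.161 to 0.227). The H3K27ac library labelled with the same animal, 6837, lay with the other heart H3K27ac libraries at the H3K4me3 regions described below. The source of these peaks was not tested, and the results are given with and without this library.

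**Figure D1:**
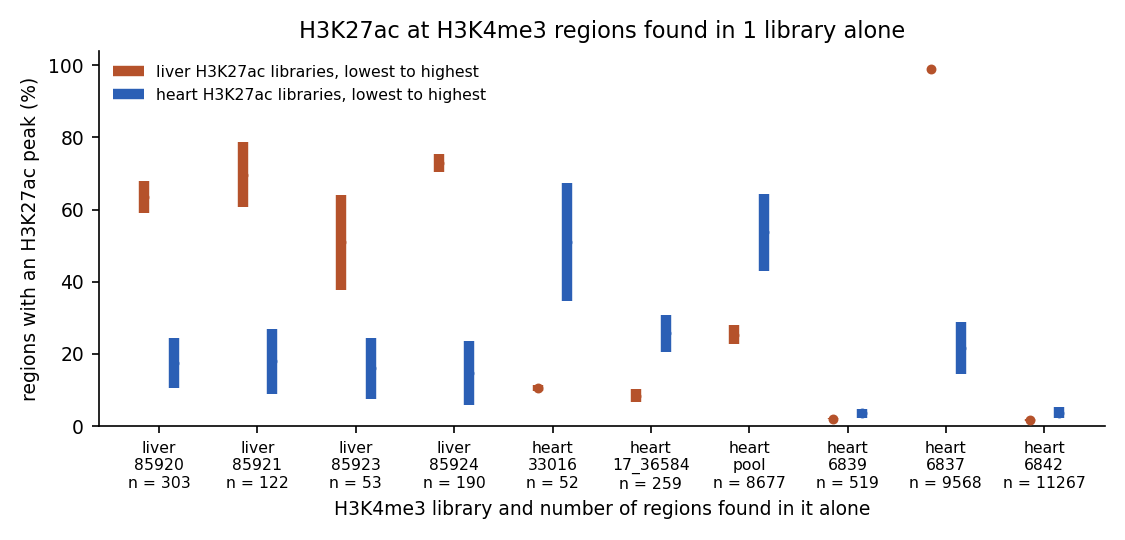
Share of H3K4me3 regions found in 1 library alone that overlap an H3K27ac peak (vertical axis, percent), for each H3K4me3 library (horizontal axis, with its number of such regions). Bars run from the lowest to the highest of the 4 liver (red) or 6 heart (blue) H3K27ac libraries, and points mark the middle of the bar. The library labelled heart 6837 is at 98.8% to 99.0% for liver H3K27ac.

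Among regions found in at least 2 libraries of a tissue, most carried H3K4me3 in both tissues. Merging the autosomal peaks of the 10 libraries gave 52012 regions. A region was called shared with a peak in at least 2 liver and 2 heart libraries, liver-only with at least 2 liver and no heart library, heart-only with the reverse, and mixed with at least 2 libraries of one tissue and 1 of the other. There were 13555 shared, 494 liver-only, 3839 heart-only and 2362 mixed regions, and 31762 regions (61.1% of all) reached none of these. Without 6837 there were 13352 shared, 2118 liver-only, 3435 heart-only and 1098 mixed regions. Shared regions thus made up 66.9% of the 20250 classed regions with all libraries and 66.8% of 20003 without 6837, while the liver-only share went from 2.44% to 10.6%. Of the 1717 mixed regions that had at least 2 liver libraries and 1 heart library, that heart library was 6837 in 1479 (86.1%) and the pool in 230 (13.4%).

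A peak in every library was found at 11462 regions. In all 4 liver and none of the 6 heart libraries there were 173 regions, which is 0.824% of the 21002 regions with a peak in at least 2 libraries. In all 6 heart and no liver library there were 660 (3.14%). Without 6837 the counts were 1161 (5.71% of 20342) for liver and 767 (3.77%) for heart. Region by region, Fisher's exact test on the number of libraries with a peak, adjusted by the Benjamini-Hochberg method, called 0 regions (0%). Its lowest adjusted p was 0.120, and 2456 of the 21002 regions had an unadjusted p under 0.05. The lowest unadjusted p by this test, 0.00476, is the smallest that 4 against 6 libraries can give. Adjustment depends on how many regions reach this p, and only the 173 and 660 fully separated regions did. At that number they could not pass, so the 0 does not show that presence was alike. In a simulation with 3000 such regions among 19832, the test called all 3000. Without 6837 the test also called 0 (0%), with the lowest adjusted p at 0.0837 and 3270 of the 20342 regions at an unadjusted p under 0.05. There too the smallest possible p, 0.00794 by Fisher's exact test, did not pass at the number of regions that reached it.

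Because the peaks of a library help to decide which regions enter a class, each library was scored on classes made from the other 9. Liver-only regions were found at 79.5%, 66.7%, 53.1% and 74.0% in the 4 liver libraries, of 356 to 448 regions each. In heart they were found at 0% (0 of 494 regions, Wilson 95% upper limit 0.772%), 0.202%, 31.8%, 0%, 75.0% and 1.397%. Thus 4 heart libraries had almost none, the pool had a part, and 6837, with 1479 of 1973, lay within the liver values. The mean was 68.3 ± 11.4% in liver (SD, n = 4) and 18.1 ± 30.6% in heart (n = 6). The difference of 50.3 percentage points did not pass after adjustment (two-sided exact permutation test, p = 0.0286, adjusted p = 0.0590 over 17 tests). Without 6837, the means were 80.2 ± 12.2% and 4.19 ± 8.34% (n = 5), and the difference of 76.0 points passed (exact p = 0.00794, adjusted p = 0.0225), where 0.00794 is the smallest p that 4 against 5 libraries can give.

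Heart-only regions were found at 6.87%, 2.32%, 3.03% and 3.78% in the liver libraries. In the heart libraries they were found at 47.6%, 53.5%, 90.1%, 24.5%, 38.0% and 52.5%. The tissues did not overlap, and 6837, at 38.0%, was on the heart side. The mean was 4.00 ± 2.00% in liver and 51.1 ± 22.0% in heart, a difference of −47.1 points, liver minus heart (exact permutation test, p = 0.00952, adjusted p = 0.0324, n = 4 and 6). Without 6837 the difference was −55.0 points (exact adjusted p = 0.0385). The pool held 90.1% of heart-only regions defined by the others, and 6839, whose list covered the fewest bases (15.6 Mb), held the fewest.

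Shared regions were found at 96.3% to 98.5% in liver and at 88.7% to 99.7% in heart. The difference of 2.35 points had an exact permutation p of 0.262 (adjusted p = 0.278, n = 4 and 6). It was 1.10 points without 6837 (exact adjusted p = 0.793) and 1.06 points without 6839 (exact adjusted p = 0.371).

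**Figure D2:**
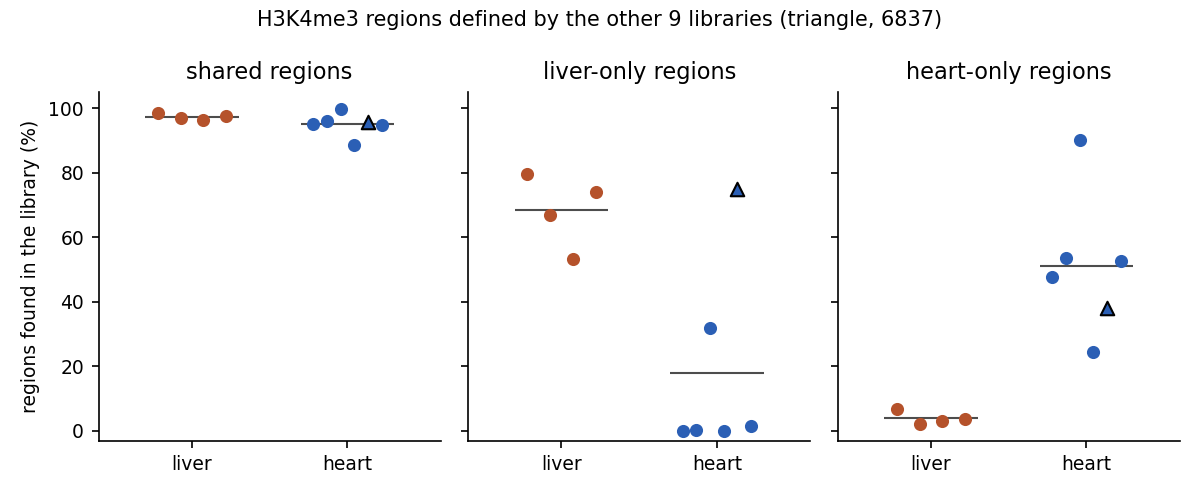
Share of regions of each class (defined by the other 9 libraries) that had a peak in a library (vertical axis, percent), by tissue. Each point is 1 H3K4me3 library, lines are means, and the outlined triangle is 6837, which is at 75.0% for liver-only regions while the other heart libraries are at 0% to 31.8%.

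In every library, regions found in a single tissue had a lower median width, and a lower median rank by the authors' fold enrichment, than shared regions, although neither difference passed after adjustment. In liver, liver-only regions had median widths of 525, 537, 471 and 580 bases, and shared regions 1521, 1477, 1390 and 1494.5 bases. In heart, heart-only regions had median widths of 505, 584, 932, 490, 736 and 511 bases, and shared regions 1295, 1490, 1856, 1099, 1640 and 1336 bases. Single-tissue regions were narrower in 4 of 4 liver and 6 of 6 heart libraries. The mean log2 ratio was −1.48 ± 0.09 in liver (SD, n = 4) and −1.24 ± 0.16 in heart (n = 6). Exact sign-flip tests gave the smallest p that 4 and 6 libraries allow, which after adjustment were 0.142 and 0.0590. Without 6837 among the libraries that exclude a region from the liver-only class, liver-only regions were wider, 806.5 to 942 bases, and the ratio in liver was −0.75 ± 0.06. The median fold percentile was 11.4 to 16.5 for liver-only and 55.6 to 58.7 for shared regions in liver, and 13.8 to 51.4 for heart-only and 56.1 to 76.2 for shared regions in heart. These differences in percentile had the same p-values as the widths. In 6837, the regions it shared with the liver-only class had a median width of 1291 bases and a median fold percentile of 47.0, beside 736 bases and 38.8 for its heart-only regions.

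The median distance to the nearest shared region was 24.4 kb for liver-only and 28.3 kb for heart-only regions, and neighbouring shared regions were 26.5 kb apart by the same measure. Within 10 kb of a shared region lay 38.3% of liver-only, 28.6% of heart-only and 25.8% of shared regions. No test was made of these distances.

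H3K27ac followed the tissue at these regions, and H3K4me1 did so at the liver-only ones. The H3K27ac lists came from another antibody and were not used to define the classes. However, list 6837 helped to exclude regions from the liver-only class, and almost all regions found in it alone overlapped liver H3K27ac. In the shares below, a region counted as covered by a mark if a peak overlapped it by any base. H3K27ac peaks covered 74.7%, 78.5%, 78.9% and 72.3% of liver-only H3K4me3 regions in the 4 liver H3K27ac libraries, which came from the same 4 animals. In the 6 heart H3K27ac libraries they covered 6.28% to 15.8%, with the lowest value in the H3K27ac library labelled 6837. The tissues did not overlap. The means were 76.1 ± 3.2% (n = 4) and 10.3 ± 4.0% (n = 6), a difference of 65.9 points (two-sided exact permutation test, p = 0.00476, the smallest p for 4 against 6, adjusted p = 0.0324). With classes made without H3K4me3 library 6837, the liver H3K27ac libraries covered 93.3% to 94.995% and the heart ones 11.99% to 25.7%, a difference of 76.9 points (exact adjusted p = 0.0225).

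At heart-only H3K4me3 regions, H3K27ac covered 24.1% to 26.99% in liver and 55.6% to 71.6% in heart, a difference of −36.2 points, liver minus heart (exact permutation p = 0.00476, adjusted p = 0.0324). Without 6837 it was −42.9 points (exact adjusted p = 0.0225). At shared regions, H3K27ac covered 81.9% to 85.9% in liver and 87.9% to 94.0% in heart. The difference was −6.60 points there (exact permutation p = 0.00952, adjusted p = 0.0324), and −7.43 without 6837 (exact adjusted p = 0.0225). The heart H3K27ac lists held 56671 to 107890 autosomal peaks and the liver ones 55905 to 62480, so list sizes differed too, and their part in these differences was not tested.

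H3K4me1 covered 56.5%, 61.5%, 59.7% and 59.5% of liver-only regions in liver. In heart it covered 33.2%, 3.85%, 22.1%, 14.4% and 13.8% in libraries 33017, the pool, 17_3498, 17_3501 and 17_3500. The pool's H3K4me1 list held 20489 autosomal peaks, against 70229 to 128372 in the other heart lists. Liver was higher by 41.9 points (exact permutation p = 0.00794, adjusted p = 0.0324, n = 4 and 5), and by 58.6 points with classes made without 6837 (exact adjusted p = 0.0225). At heart-only regions the tissues overlapped widely, with 43.0% to 66.0% in liver and 19.4% to 76.2% in heart (exact p = 0.794). At shared regions liver covered 87.9% to 90.7% and heart 28.8% to 94.2% (exact adjusted p = 0.12). With 1 library of another mark left out, which makes the smallest possible p larger, adjusted p-values at liver-only regions were as high as 0.0506 for H3K27ac and 0.0590 for H3K4me1. At heart-only and shared regions they were as high as 0.0506 and 0.0590 for H3K27ac.

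**Figure D3:**
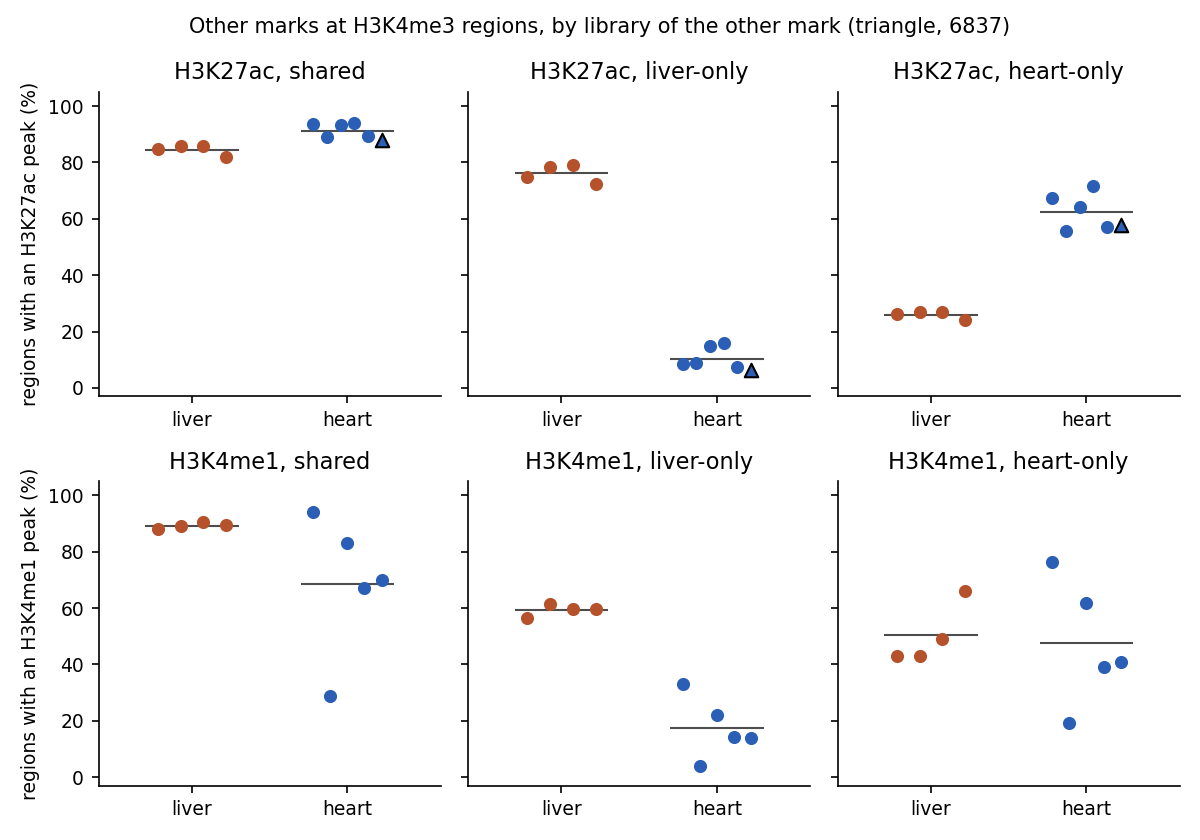
Share of shared, liver-only and heart-only H3K4me3 regions with an H3K27ac (upper) or H3K4me1 (lower) peak (vertical axis, percent), by tissue of the H3K27ac or H3K4me1 library. Each point is 1 library, lines are means and the outlined triangle is the H3K27ac library labelled 6837, which sits at 6.28% among the heart libraries at liver-only regions.

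Over whole lists the width of a typical peak did not separate the tissues after adjustment. Median peak width was 1153, 1243, 1137 and 1234 bases in liver and 913, 1143, 845, 775, 959 and 344 bases in heart. Only heart 17_36584, at 1143, reached into the liver values. The log2 difference was 0.61, or 1.53-fold (exact permutation p = 0.0429, adjusted p = 0.0729), and 0.67 without 6837 (exact adjusted p = 0.0506). It was 0.37 without heart 6842 (exact adjusted p = 0.0578), 0.34 among peaks with a −log10 q of at least 4 (exact adjusted p = 0.0531) and 0.07 with the same number of peaks in every library (exact adjusted p = 0.784). Heart 6842, with the narrowest median, was also the library with the lowest share of peaks at a −log10 q of at least 4. Peak numbers (log2 difference −0.42, exact adjusted p = 0.0883) did not pass either, nor did they without 6837 (−0.36, exact adjusted p = 0.180). The 95th percentile of width had a log2 difference of 0.27 (exact adjusted p = 0.12), 0.32 without 6837 (exact adjusted p = 0.135) and 0.15 with the same number of peaks in every library (exact adjusted p = 0.503). At the 11462 regions found in all libraries the median width was 1467 to 1617.5 bases in liver and 1128 to 1959 bases in heart, with the pool widest and 6839 narrowest.

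Width region by region did differ between the tissues. For each of the 11462 regions the log2 width was centred on the library median and tested with limma, adjusted over all regions by the Benjamini-Hochberg method. At an adjusted p under 0.05, 2839 regions (24.8%) differed, 1331 wider in liver (11.6%) and 1508 wider in heart (13.2%). The liver and heart values did not overlap at 2229 regions (19.4%), and 2038 (17.8%) met both criteria. Without 6837, 3378 of 11609 regions (29.1%) differed, 1626 wider in liver (14%) and 1752 in heart (15.1%). Most differences were modest: the median log2 difference was 0.50 among regions wider in liver and −0.56 among those wider in heart, and 227 and 280 of them reached 2-fold. Without centring, 364 regions were wider in liver and 533 in heart.

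**Figure D4:**
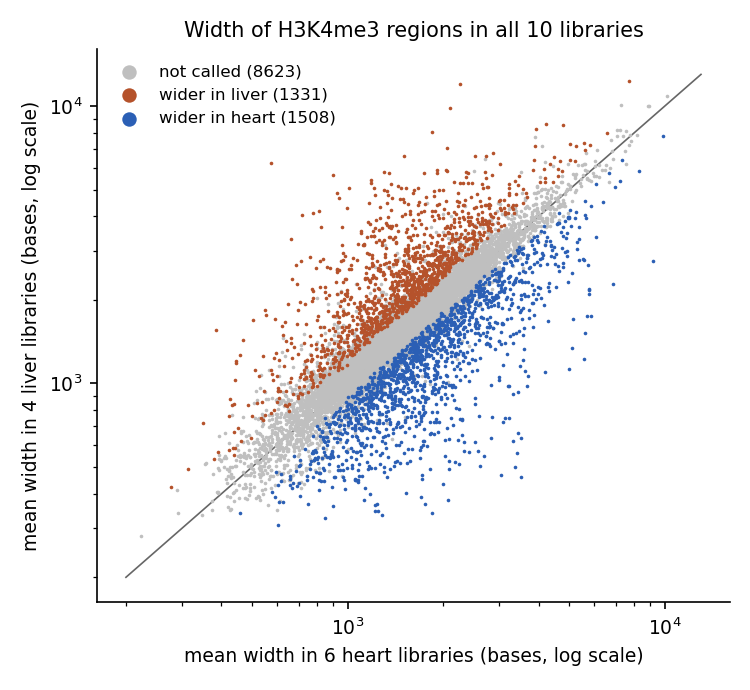
Mean width of each of the 11462 regions found in all libraries, in the 6 heart libraries (horizontal axis) and the 4 liver libraries (vertical axis), in bases on log scales. The line is equality. Colours mark regions wider in liver (1331), wider in heart (1508) and not called (8623) by limma at an adjusted p under 0.05.

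The region with the largest excess of width in liver was chr12:57540791-57547232. It was 6442, 6303, 6023 and 6202 bases wide in liver and 235, 428, 1089, 451, 3351 and 216 bases in heart. Every heart library was narrower than every liver library, which the rule that picked the named regions required. The widest heart value was that of 6837. The log2 difference was 3.39 ± 0.58 (SE), or 10.5-fold (limma adjusted p = 0.00177), and 3.86 without 6837. H3K27ac was present there in 4 of 4 liver and 0 of 6 heart libraries.

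At chr17:73804254-73810999 the widths were 6143, 5991, 5264 and 5235 bases in liver and 724, 857, 1605, 594, 866 and 1034 bases in heart. Here 6837, at 866 bases, was among the heart values. The log2 difference was 2.60 ± 0.14 (limma adjusted p = 9.53e-07). H3K27ac was present in 4 of 4 liver and 5 of 6 heart libraries, so this mark was not limited to liver there.

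The widest region named was chr2:164431536-164445143, spanning 13608 bases. Its widths were 12251, 12267, 10613 and 13004 bases in liver and 1637, 2000, 2598, 1079, 9979 and 1447 bases in heart. The 5 heart libraries other than 6837 were at most 2598 bases wide, and 6837 was close to the liver libraries. The log2 difference was 2.36 ± 0.42 (limma adjusted p = 0.00225) and 2.75 without 6837. The remaining regions of this kind were chr4:108114589-108118945, with a log2 difference of 2.35, and chr9:121640327-121645002, with 2.31. In the former 6837 was 3806 bases wide against 409 to 1057 in the other heart libraries, and in the latter it was the narrowest of all at 398 bases.

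Of the regions wider in heart, chr5:134741323-134748005 differed most. It was 523, 416, 451 and 460 bases wide in liver and 3286, 3203, 6683, 1498, 4512 and 3948 bases in heart. All heart libraries, 6837 among them, were wider than all liver libraries, which the rule that picked the region required. The log2 difference was −2.98 ± 0.21 (limma adjusted p = 4.51e-06). H3K27ac was present in 4 of 4 liver and 6 of 6 heart libraries.

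At chr9:58308796-58314148 the widths were 693, 352, 894 and 288 bases in liver and 2873, 4160, 5353, 2586, 3218 and 2729 bases in heart. The log2 difference was −2.80 ± 0.29 (limma adjusted p = 5.56e-05). H3K27ac was found in 0 of 4 liver and 6 of 6 heart libraries, as it was at chr4:141597981-141601724 (log2 difference −2.76) and chr4:123232969-123237468 (−2.67). At chr8:121116068-121121296 (−2.52) 1 liver library had an H3K27ac peak.

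**Figure D5:**
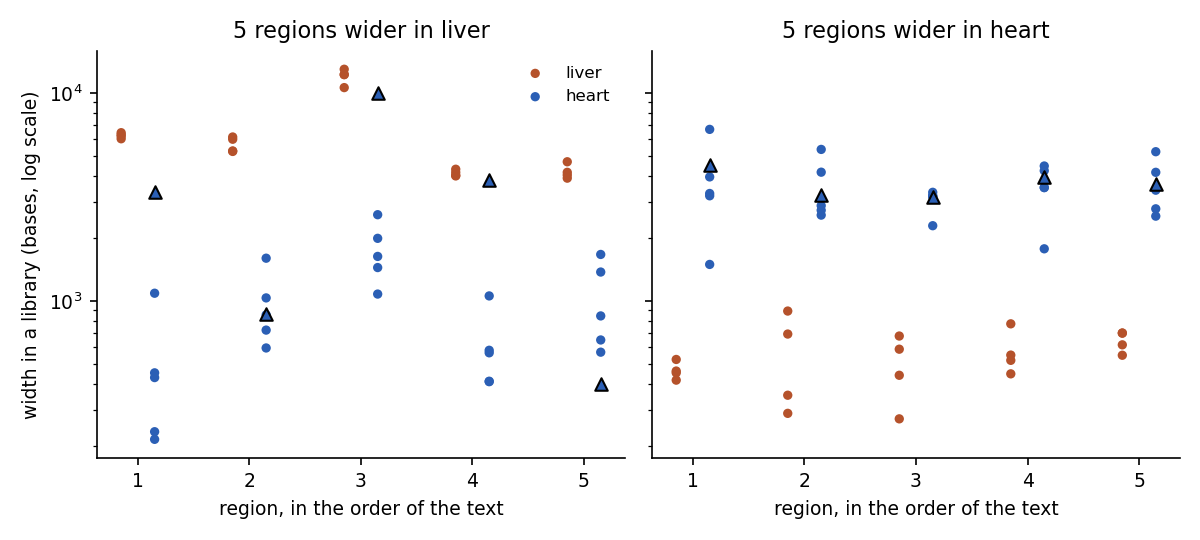
Width of the 5 regions with the largest differences in each direction (horizontal axis, in the order of the text) in each library (vertical axis, bases on a log scale). Red points are liver, blue points heart, and the outlined triangle is 6837. At the regions numbered 1, 3 and 4 on the left 6837 is the widest heart library, and on the right it lies among the heart libraries.

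H3K27ac coverage followed H3K4me3 width in these libraries. The mean share of a region's bases covered by H3K27ac at regions wider in liver was higher than at all tested regions by 25.5 to 27.6 points in the 4 liver H3K27ac libraries, and differed by −13.5 to −15.6 points in the 6 heart ones. At regions wider in heart, the difference from all regions was −28.8 to −31.0 points in liver and 4.48 to 7.58 points in heart. In both sets every liver library lay on the opposite side of 0 from every heart library, including the heart H3K27ac library labelled 6837. This comparison was chosen after the data were seen and was not tested.

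The broadest regions overlapped in part between the tissues. The broadest 5% of regions were 573 per tissue, from 3540 bases in liver and from 3249 bases in heart. Of these, 326 (56.9% of each list) were in both. Without 6837, 322 of 580 (55.5%) were.

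Signal rank was compared in the same way. The authors' fold enrichment is their peak caller's own value, so it was turned into a percentile within each library over the same 11462 regions. With limma, 1553 regions (13.5%) had an adjusted p under 0.05, 702 ranked higher in liver (6.12%) and 851 in heart (7.42%). The tissues did not overlap at 1510 regions (13.2%), and 1195 (10.4%) met both criteria. Without 6837, 1730 of 11609 (14.9%) differed, 807 higher in liver (6.95%) and 923 in heart (7.95%). The share of calls that were higher in liver was 45.2%, and 30.8% when log2 fold centred on the library median was used in place of the percentile (876 higher in liver and 1972 in heart).

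The region that ranked highest in liver relative to heart was chr14:57101052-57105496. Its fold was at percentiles 98.9, 91.0, 83.6 and 91.0 in liver and 13.7, 4.70, 11.8, 3.78, 9.27 and 8.06 in heart. Among the regions found in all libraries it ranked near the top in each liver library and near the bottom in each heart library, 6837 included. That the tissues did not overlap was part of how the region was picked. The difference was 82.6 ± 4.4 percentile points (SE, limma adjusted p = 2.56e-06). In width, however, 6837 was at 4132 bases with the liver libraries (3413 to 4182) and not with the other heart libraries (642 to 1267). The next were chr11:35978494-35980968 (77.6 points), chr12:57540791-57547232 (76.7), which also had the largest excess of width, chr13:41217781-41221118 (76.6) and chr7:45486289-45489434 (73.4). All 5 had H3K27ac in 4 of 4 liver libraries. In heart, H3K27ac was at 1, 0, 0, 0 and 6 of 6 libraries in the same order.

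In the other direction, chr7:137308874-137315804 was at percentiles 6.22, 1.97, 6.35 and 2.30 in liver and 60.7, 72.3, 78.1, 70.04, 85.7 and 70.3 in heart. The 6 heart libraries were all far above the 4 liver libraries, and 6837 was the highest. The lack of overlap was again part of how the region was picked. The difference was −68.6 ± 5.1 points (limma adjusted p = 1.29e-05). Its widths were 1213 to 1237 bases in liver and 3723 to 6931 in heart. The others were chr6:137646943-137649750 (−67.6 points), chr16:44557052-44559384 (−62.7), chr1:37539416-37541607 (−62.4) and chr9:92541387-92543693 (−61.0). Of these 5, all had H3K27ac in 6 of 6 heart libraries, and chr6:137646943-137649750 alone also had it in liver, in 4 of 4 libraries. H3K4me1 was present at all 5 in 4 of 4 liver libraries and in 2 to 3 of 5 heart libraries.

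Among regions found in all heart libraries and no liver library, chr12:37104660-37113097 ranked first by mean fold percentile (65.0 ± 12.4, SD, n = 6). It was 5650, 8074, 8141, 5017, 8142 and 6565 bases wide in heart and had no peak in liver. Its fold was 39.98 to 64.2. It was followed by chr4:47207561-47212857 (64.9), chr12:112927994-112930387 (63.4), chr9:87728764-87731482 (61.2) and chr8:95702554-95704458 (60.2). All 5 had H3K27ac in 6 of 6 heart and 0 of 4 liver libraries. H3K4me1 was present in 1 to 4 of 4 liver libraries and in 2 to 4 of 5 heart libraries. Their choice rests on the H3K4me3 lists, so only the other marks are separate measurements.

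The liver-only regions that ranked highest with all 10 libraries had lower mean percentiles in liver lists than those heart regions had in heart lists. Percentiles within different lists are not directly comparable. Shared regions had median percentiles of 55.6 to 58.7 in liver and 56.1 to 76.2 in heart. The first, chr10:83325148-83326879, had widths of 1333, 1732, 1343 and 564 bases, folds of 31.4, 26.9, 25.9 and 13.3 and a mean fold percentile of 39.98 ± 6.4 (SD, n = 4). It was followed by chr1:133103433-133104592 (38.8), chr2:73969978-73971442 (38.7), chr17:28279503-28281765 (38.6) and chr7:141275869-141277333 (37.2). All 5 had H3K27ac in 4 of 4 liver libraries. The heart H3K27ac lists had a peak at chr17:28279503-28281765 in 3 libraries, at chr7:141275869-141277333 in 1 and at the other three in none.

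The same ranking without 6837 led to other regions, which were chosen after the values were seen. The first was chr11:102144872-102148242, with liver folds of 146, 110, 112 and 97.0, and in 6837 a peak of 2107 bases with a fold of 17.5. At chr5:114968015-114972497 the liver folds were 97.6, 107, 110 and 124, and 6837 had a peak of 4038 bases with a fold of 17.3. At chr11:98445538-98450824, chr1:184807541-184812669 and chr10:128957657-128961484 the liver folds were 69.7 to 179 and those of 6837 were 8.14, 18.98 and 21.5. Mean liver percentiles of these 5 regions were 83.1 to 87.3. All had H3K27ac in 4 of 4 liver and 0 of 6 heart libraries, the H3K27ac library labelled 6837 among the latter. The absence of peaks in the other 5 H3K4me3 heart libraries was part of how these regions were chosen. The peaks of 6837 were not used in this ranking, but they are not a separate observation either. Without a 6837 peak, regions ranked this high would have led the ranking with all 10 libraries, where the highest mean percentile was 39.98.

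Summits of the tissues lay close together. At regions found in all libraries, the median distance between the summits of 2 libraries was 23 to 27 bases within liver (6 pairs), 30 to 55 within heart (15 pairs) and 39 to 56 between tissues (24 pairs). The means over pairs were 24.8, 42 and 45.0 bases, so pairs from different tissues were closer to heart pairs than to liver pairs. Without 6837 the means were 24.8, 38.6 and 46.25 bases. Pairs from different tissues were 7.93 bases farther apart than pairs from 1 tissue (one-sided exact permutation test, p = 0.0190, adjusted p = 0.0540), and 12.8 bases without 6837 (exact p = 0.00794, adjusted p = 0.0225). Without liver 85921 or 85924 the difference was 5.11 bases (exact adjusted p = 0.112). Among 5545 regions with 1 peak in each library, the summits of the tissues did not overlap at 394 (7.11%). The median distance between the tissues' median summits was 27.5 bases over all 5545. Without 6837 it was 701 of 5881 (11.9%).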

How the data were processed

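Per the file names, each deposited list was called on GRCm38 for a single library, with 1 input library as its background. MACS2 is named in the submitters' processing notes. The aligner and the calling settings were not given in the sources used here. Fold enrichment as the authors deposited it is a linear ratio from their peak caller. The deposited −log10 q-value is the caller's own. Positions are counted from 1.

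Autosomal peaks (chromosomes 1 to 19) of the 10 libraries were merged where they overlapped by any base. Width is the bases of a region covered by a library's peaks, and fold and summit are those of its strongest peak. Per-library values were tested with exact permutation or sign-flip tests, 17 in 1 family adjusted by the Benjamini-Hochberg method at 0.05, of which 5 passed (7 without 6837). With 4 against 6 libraries the smallest two-sided p is 0.00476. Width and fold percentile per region were fitted with limma 3.58.1 in R 4.3.3, on tissue alone. Other steps used Python 3.11.15, NumPy 2.4.6, pandas 2.3.3, SciPy 1.17.1, statsmodels 0.14.6 and Matplotlib 3.10.9. On simulated widths for the 11462 regions, 97.2% of those given a 2-fold change, 70.1% of those given 1.5-fold and 0.0266% of unchanged ones were called. The simulated noise was independent between libraries, with the same spread in both tissues, and few regions were changed. These rates hold for that setting and do not give the error rates of the fits to the real lists. Wilson 95% intervals cover counting error only.

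Named regions are the 5 with the largest difference in each direction among those with an adjusted p under 0.05, no overlap of tissues, and the same call without 6837. For single-tissue classes they are the 5 with the highest mean fold percentile. Regions of chromosome 18 were not named. Alternatives were a −log10 q of at least 4, 16921 peaks in every library, merging across 500 bases, classes of 3 libraries, 50% overlap, other scalings and limma settings, and leaving out each library. The comparisons, lists and members were chosen with earlier results of these data known. The values of regions found in 1 library alone and of H3K27ac coverage at regions of different width were added after the data were seen. Planned marker genes and sequence features needed an annotation and a genome of the build and were not analysed here.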

Additional observations from a re-analysis of the deposited data

Results flagged for a closer look

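In heart 6842, 69.61% of peaks had a −log10 q of at least 4, while the other 5 heart lists had 88.6% to 96.4%. This value lay farther from its nearest neighbour than Dixon's 95% limit for 6 values allows. It was the only one of 28 group values checked that did, and chance alone sets apart about 1 in 20 groups. The same list was the longest of the 10 (32785 peaks) and had the narrowest median peak (344 bases). Without it, the log2 difference in median peak width between liver and heart was 0.37, against 0.61 with it.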

How the results depend on the processing

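The 20 named differences in width and fold rank kept their direction and stayed past the threshold in the 303 values that could be recomputed, of which those without 6837 were fixed by the rule that chose them. A further 7 had no value, as the region was then not among those tested: chr12:57540791-57547232 (width and fold), chr9:121640327-121645002, chr9:58308796-58314148 and chr4:141597981-141601724 with the same number of peaks in every library, and both chr9 regions also at a −log10 q of at least 4. The number of liver-only regions depended most on the lists used: 2118 without heart 6837, 756 without the pool, 1172 with the same number of peaks in every library, 323 with merging across 500 bases and 299 with classes of 3 libraries, and 378 to 2118 over single libraries left out. Heart-only regions numbered 2057 with the same number of peaks, 2117 with classes of 3 libraries and 2421 to 4130 with single libraries left out, the lowest without the pool. Mixed regions numbered 1098 to 2390 with single libraries left out, the lowest without 6837. The difference in liver-only regions found in a left-out library passed the threshold with peaks of high confidence (51.1 points), with the same number of peaks (63.7) and with classes of 3 libraries (66.4), and was 45.7 to 76.0 points with single libraries left out. The difference in summit distance passed with peaks of high confidence (7.98 bases), with the same number of peaks (8.04) and as a mean over regions (22.9), and was 5.11 to 12.8 bases with single libraries left out.

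With single libraries of either mark left out, differences at liver-only regions were 50.4 to 76.9 points for H3K27ac and 33.6 to 58.6 for H3K4me1. H3K27ac differed by −45.7 to −34.4 points at heart-only and by −7.50 to −5.71 at shared regions. Some of these lost the threshold with fewer libraries, which raises the smallest possible p. H3K4me1 at heart-only regions, with no difference called, was −4.26 to 9.95 points, negative without liver 85924 (−2.44) and without the pool (−4.26). H3K4me1 at shared regions differed by 10.7 points without the pool. Without centring, 364 regions were wider in liver and 533 in heart, and 1972 regions ranked higher in heart on centred log2 fold. The cause of these changes was not tested. Peak number has no value where every list is given the same number of peaks. Fisher's test called 0 regions in every setting. No paired analysis was possible because liver and heart libraries come from different animals and share no replicate number. Read depth, which sets how many weak peaks a list holds, is unknown, and the labels name no batch.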
